A study of Mus musculus with 16 samples.

Results

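The comparison set the mRNAs and ribosome footprints of RAW264.7 cells at 75 and 90 min of lipopolysaccharide (LPS) against those at 45 and 60 min. RAW264.7 is a mouse macrophage-like cell line, and LPS is a component of the bacterial cell wall that macrophages sense through the receptor Tlr4. The question was which early transcripts were shut off while other genes still climbed or newly started. The rule took the libraries by their labelled time, without regard to any measured value. It selected 8 of the 16 libraries, 4 of cytoplasmic input RNA and 4 of ribosome-protected fragments, all from cells given 100 ng/ml LPS. Both windows therefore shared the line, the dose and the agent, and their labels differed by time. Each time also came from its own lysate and libraries, so time cannot be told apart from differences in preparation. At each time, a single lysate gave both the input and the footprints. The untreated libraries and those of 15 and 30 min served only to describe where a gene had started, and the 16 h libraries were not used. No untreated culture was sampled at a later time, so LPS cannot be told apart from handling and time in culture.

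Each time point held 1 library of each material, and a window held 2 libraries of different times. The error of the comparison is the spread between the 2 times of a window, so it contains any real change within a window, and a steadily moving gene carries a large error. The p-values of this comparison measure only that spread. Every library totalled 6702931 or 6702932 counts, so deposited counts can be read side by side between libraries. Of 13832 genes, 9374 in input and 8993 in footprints had at least 20 counts in 2 of the 4 libraries, and 8901 passed in both. The macrophage list summed to 39598 to 53264 counts per library in input and 50375 to 59221 in footprints. The 2 fibroblast markers in the table were at 0 in all 8 libraries and the 2 epithelial markers summed to 0 or 1. Osteoclast markers, a fate that this line can take, summed to 292 to 372 counts in input, and to 488, 369, 267 and 219 in footprints at 45, 60, 75 and 90 min. The fall of that sum was not shared by all members. Footprints of Acp5 numbered 27, 27, 30 and 22, and those of Dcstamp 67, 56, 57 and 70. The 3 members tested in footprints had log2 changes from -1.13 to 0.11, with a median of 0.01. The part of these markers in the results was not tested.

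When Tlr4 binds LPS, adaptor proteins turn on the transcription factor NF-kB and the MAP kinases. The first mRNAs to appear need no new protein synthesis. Many of them encode transcription factors such as Jun and Fos, or inhibitors of the pathway itself such as Nfkbia and Tnfaip3. These mRNAs are often short-lived, and sequences rich in A and U in their 3′ untranslated regions (3′ UTRs) recruit decay proteins such as Zfp36 (tristetraprolin). Cytokines, chemokines and surface proteins of the activated macrophage follow.

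Between the windows, 72 genes rose and 39 fell in input, which was 0.768% and 0.416% of the genes tested (edgeR's quasi-likelihood test, Benjamini-Hochberg adjusted p under 0.05). In footprints 48 rose and 31 fell, 0.534% and 0.345%. The immediate early factor Jun had the largest fall among the called genes of both materials. The largest called rises with at least 100 counts were those of the chemokine Cxcl10 in input and of the cytokine Il1a in footprints. More genes had windows that did not overlap, meaning that both late libraries lay beyond both early ones. With 2 libraries against 2, that order often arises without any change, so the shares that follow are descriptions. Without overlap, 26.5% of genes were higher and 26.2% lower in input, and 24.5% higher and 24.6% lower in footprints. A linear term in minutes over the same 4 libraries, which does not count a steady trend as error, called 767 rising and 644 falling genes in input, 8.18% and 6.87%. It called 731 and 541 in footprints, 8.13% and 6.02%, and it kept all 111 calls of the window test in input and all 79 in footprints. The error of the linear term is the scatter of single libraries around a straight line, so its p-values hold no replicate of a time either. Scaling by total counts alone gave 74 higher and 73 lower genes in footprints, 50.3% higher against 60.8% in the main fit. The input calls fell to 1 without the 45 min library and to 23 without the 90 min library, and the footprint calls fell to 34 without the 90 min library.

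The genes called by the window test were sorted by their mean level at 45 and 60 min over the untreated library. In input, 10 genes had been induced at least 2-fold and then fell (shut-off after induction), and 29 fell without such induction. A further 9 had been induced and were still climbing, and 63 started below 2-fold and rose (newly starting). In footprints the numbers were 10, 21, 8 and 40. The 10 shut-off genes of input stood at a median of 14.7-fold over untreated in the early window and changed by a median log2 of -1.73. All 10 had the same sign in footprints, where 8 were also called. Of these 10, 9 peaked at 45 min and 1 at 60 min. Of the 63 newly starting genes, 57 had their highest level of the 0 to 90 min series at 90 min, 3 at 75 min and 3 at 30 min. Despite its name, the class also holds genes well expressed before LPS, such as Tlr4 with 1143 input counts in untreated cells.

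**Figure D1:**
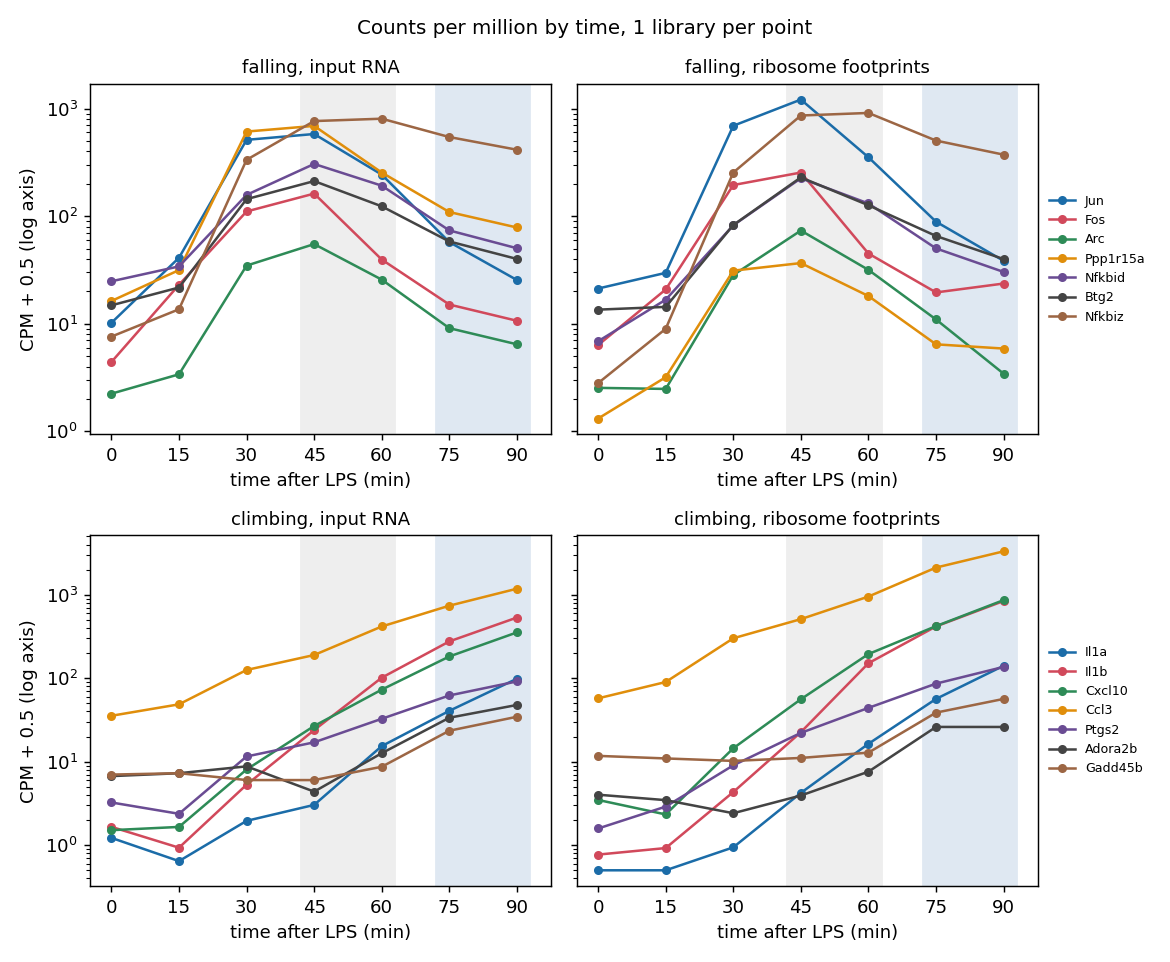
Level in CPM, the count scaled by library size, plus 0.5 on a log axis against minutes after LPS, in input (left) and footprints (right), with 1 library per point. The shaded bands are the early window (45 and 60 min) and the late window (75 and 90 min). The upper 7 genes peak at 45 or 60 min and fall at every later time, apart from Fos footprints, which are higher at 90 min than at 75 min. The lower 7 genes rise through the 4 libraries in input. Adora2b footprints level off between 75 and 90 min.

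The AP-1 and immediate early transcription factors are described first. Jun, a subunit of the AP-1 factor, had 3884 counts at 45 min, 1601 at 60 min, 371 at 75 min and 160 at 90 min in input. Its footprints numbered 8123, 2282, 566 and 233 at the same times. Every step was downward in both materials and the windows did not overlap. Input changed by a log2 of -3.33 ± 0.46 (SE) and footprints by -3.63 ± 0.58, with adjusted p = 0.034 and 0.039. At 90 min Jun input still lay 2.39-fold above the 67 counts of untreated cells. Junb, a related subunit, fell far less, from 6808 and 5858 to 4278 and 3714 counts in input, a log2 change of -0.63 ± 0.08 (adjusted p = 0.032). Its footprints fell by 0.70 ± 0.12 on the log2 scale (adjusted p = 0.049), and Junb at 90 min was still 11.8-fold over untreated in input.

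Fos, the partner of Jun in AP-1, had 1082, 257, 95 and 65 counts in input and 1701, 288, 122 and 142 in footprints. Its fall was about as large as that of Jun, with log2 changes of -3.02 ± 0.64 and -2.83 ± 0.69, but adjusted p was 0.068 and 0.11. Most of the loss came between 45 and 60 min, inside the early window. Fos fell by the linear term in both materials (adjusted p = 2.6e-06 and 5.2e-06). The same pattern held for Ier2, a nuclear immediate early protein, with 1848, 587, 244 and 302 counts in input. Its window test gave adjusted p = 0.071 and its linear term 0.00034. Nr4a1, an orphan nuclear receptor, held its level longer, with 1110 and 969 counts in the early window, then 469 and 191. Its log2 change in input was -1.62 ± 0.30 (adjusted p = 0.053 for the window and 0.00014 for the linear term).

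Arc, best known as an activity-regulated gene of neurons, had 365, 166, 56 and 38 counts in input and 489, 202, 67 and 18 in footprints. It fell 5.48-fold in input and 7.74-fold in footprints (adjusted p = 0.037 and 0.049), with no overlap of the windows. Btg2, an antiproliferative protein that recruits the CCR4-NOT deadenylase, had 1416, 810, 376 and 253 counts in input. Its log2 changes of -1.78 ± 0.26 in input and -1.77 ± 0.30 in footprints were nearly equal (adjusted p = 0.037 and 0.045).

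Among all 30 immediate early genes listed, 25 passed the filter in input. Of these, 4 fell (Jun, Arc, Btg2 and Junb) and 1 rose by the window test, and 12 fell and 6 rose by the linear term. The shares of all input genes were 0.416% and 0.768% by the window test and 6.87% and 8.18% by the linear term. For the immediate early genes the counts are those of the list alone. Their median log2 change was -0.36, against -0.004 for all genes tested. The gene that rose was Gadd45b, a stress sensor upstream of p38 and JNK signalling. It was flat to 60 min, with 45 counts in untreated cells and 37 and 54 in the early window, and then rose to 150 and 218. Gadd45b changed by a log2 of 2.05 ± 0.26 in input and 2.03 ± 0.21 in footprints (adjusted p = 0.032 and 0.038). Myc, listed with the same group, had 14, 60, 125 and 251 counts in input and 26, 205, 513 and 720 in footprints. It rose by the linear term only (adjusted p = 6.5e-06 in input and 2.7e-06 in footprints).

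A second set of shut-off genes encodes regulators of signalling and protein synthesis. Nfkbid, a nuclear IkB protein, had 2045, 1262, 477 and 319 counts in input and 1505, 847, 318 and 183 in footprints. It fell by a log2 of 2.01 ± 0.24 and 2.16 ± 0.29 (adjusted p = 0.032 and 0.038). Its relative Nfkbiz, which is needed for the induction of a group of secondary response genes, peaked later and fell less. It had 5125, 5305, 3543 and 2651 counts in input and 5774, 5902, 3227 and 2288 in footprints, with log2 changes of -0.71 ± 0.11 and -1.02 ± 0.14 (adjusted p = 0.037 and 0.038). Both early libraries of Nfkbiz lay above both late ones in each material.

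Ppp1r15a (GADD34) directs a phosphatase to eIF2alpha and so restores protein synthesis after stress. It had 4620, 1673, 709 and 499 counts in input, but only 242, 114, 38 and 33 in footprints. The fall was 5.06-fold in input and 4.77-fold in footprints (adjusted p = 0.049 and 0.039). Rhob, a small GTPase, had 151, 118, 51 and 48 counts in input and fell 2.64-fold (adjusted p = 0.032; footprints 0.069). Cd83, a surface protein of activated antigen-presenting cells, lies outside the naming rule and is given as a member of the class, chosen after its values were seen. It fell by 0.48 in input and 0.58 in footprints (adjusted p = 0.037 and 0.038).

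The shut-off genes were short and several carried a cAMP response element (CRE) at their start, a site bound by the CREB and ATF family, so their promoters are shown. The letters TGACGTCA were searched in RefSeq promoters of 300 bases, 250 before to 50 after each start, on both strands. In input, 6 of the 10 shut-off genes had a promoter in the table, and 3 of those held the motif, against 4.0% of the 7472 tested genes with a promoter and 1.8% of all 32851 promoters. Of the 32 genes that were induced and fell by the linear term, 23 had a promoter and 5 of these (21.7%) held it. The 5 were Btg2, Nfkbid, Ppp1r15a, the MAP kinase phosphatase Dusp1 and the cyclin Ccnl1, which the naming rule does not hold and which is named for the motif after its values were seen. The 60 bases around each motif follow, 5′ to 3′ on the strand of the gene, with the motif in capitals (GRCm38.p6).
Btg2, chr1:134079288-134079347, minus strand: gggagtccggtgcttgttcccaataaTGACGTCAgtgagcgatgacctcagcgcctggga
Nfkbid, chr7:30422329-30422388, plus strand: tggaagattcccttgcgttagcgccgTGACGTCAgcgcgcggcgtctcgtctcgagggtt
Ppp1r15a, chr7:45526247-45526306, minus strand: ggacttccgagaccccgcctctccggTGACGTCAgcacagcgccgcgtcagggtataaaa
Dusp1, chr17:26508582-26508641, minus strand: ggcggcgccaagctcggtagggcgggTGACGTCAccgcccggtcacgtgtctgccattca
Ccnl1, chr3:65958234-65958293, minus strand: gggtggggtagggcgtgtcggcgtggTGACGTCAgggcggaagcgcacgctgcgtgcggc
The motif began 166, 51, 12, 143 and 18 bases before the RefSeq start of the promoter that held it, in turn. A gene with several promoters counted if any of them held the motif. For Nfkbid it lay in the promoter beginning at 30422156 and not in those beginning at 30421481 and 30423025. In input, none of the 6 still climbing genes of the window test with a promoter held it, and 2 of 68 did among those of the linear term. Of the newly starting genes of the window test, 1 of 50 held it. Among footprint calls the motif was in 3 of 7 shut-off, 1 of 18 falling, 0 of 6 climbing and 4 of 36 newly starting promoters (11.1%), so it was not found in shut-off genes alone. A match describes the letters only, and no binding was measured.

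The AP-1 motif TGANTCA was found in 0 of 23 promoters of the genes shut off in input by the linear term (2 of 26 in footprints), in 13.2% of those still climbing and in 5.5% of all tested genes. The loose NF-kB pattern, GGG and CC with 5 bases of any kind between them, was in 82.6% of the shut-off, 66.2% of the climbing and 72.4% of all tested promoters. Among calls of the window test the order was the other way, with 3 of 6 shut-off (50.0%) and 4 of 6 climbing promoters (66.7%). The CArG box, the site of serum response factor, was in 8.7%, 7.4% and 1.6% of the linear-term groups and all tested promoters, and in 0 of 6 shut-off promoters of the window test. The interferon response pattern, GAAA repeated after 2 bases, was in 4.3%, 5.9% and 3.6% of those groups. Over all 32851 promoters the shares were 7.8% for AP-1, 50.8% for NF-kB, 1.6% for CArG and 3.4% for the interferon response pattern. The median length of the gene in the genome was 4.6 kb for the shut-off genes of the linear term and 13.3 kb for those still climbing. It was 34.4 kb for the newly starting, 35.5 kb for those that fell without induction and 24.9 kb for all tested genes, all in input. In footprints the medians were 6.1, 10.1, 26.9, 32.6 and 25.0 kb in the same order, so the newly starting genes lay near all tested genes there.

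AU-rich motifs occurred on both sides of the comparison. The heptamer TATTTAT was in the 3′ UTR of 17 of 32 shut-off genes (53.1%), 48.3% of climbing genes, 38.0% of newly starting genes and 30.6% of all tested genes with a 3′ UTR (the linear calls of input, the longest coding transcript of GENCODE M21). Among calls of the window test it was in 3 of 10 shut-off genes (30.0%) and 6 of 9 climbing ones (66.7%). The 30 bases of the 3′ UTR richest in ATTTA are shown for 2 genes that fell, 2 that climbed and Tnf, with ATTTA in capitals (GRCm38, strand of the gene).
Fos, chr12:85477090-85477119, plus strand: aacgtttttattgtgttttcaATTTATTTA
Ppp1r15a, chr7:45522957-45522986, minus strand: gtagtttcctattATTTATTTATTTATTTA
Ptgs2, chr1:150105794-150105823, plus strand: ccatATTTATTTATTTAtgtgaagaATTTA
Il1b, chr2:129364808-129364837, minus strand: caaccacttacctATTTATTTAtgtATTTA
Tnf, chr17:35199679-35199708, minus strand: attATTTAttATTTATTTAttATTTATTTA
The pentamer occurred 4 times in the 3′ UTR of Fos, 4 times in that of Ppp1r15a and 4 times in that of Il1b, 8 times in that of Tnf and 14 times in the longer one of Ptgs2. The falling Ppp1r15a and the climbing Ptgs2 both held 4 in the 30 bases shown.

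The mRNAs of decay factors, of which some bind AU-rich sequences and others act elsewhere, were also counted. Zfp36, which binds AU-rich mRNAs and brings deadenylases to them, had 3636, 1487, 846 and 738 counts in input and 14058, 3556, 2304 and 2071 in footprints. It fell by the linear term (adjusted p = 4.5e-05 and 1.1e-05) and missed the threshold of the window test (0.066 and 0.12). Zfp36l2, of the same family, had not been induced (370 counts in untreated cells) and fell by a log2 of 1.37 ± 0.21 in input (adjusted p = 0.037), with 381, 247, 132 and 105 counts. Zc3h12a (Regnase-1), an endonuclease of inflammatory mRNAs, had 202, 317, 424 and 553 counts in input and rose by the linear term (adjusted p = 1.8e-05). Of 23 decay factors tested in input, 2 fell and none rose by the window test (3 fell and 8 rose by the linear term), with a median log2 change of 0.14. The 2 were Btg2 and Zfp36l2. Among all input genes the linear term called 6.87% falling and 8.18% rising.

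Tnf and the NF-kB inhibitors Tnfaip3 and Nfkbia were low at 60 and 75 min and higher again at 90 min, so their windows overlapped. Tnf, the first cytokine of the response, had 10018 counts at 45 min, 4036 and 3989 at 60 and 75 min, and 5483 at 90 min in input. Its footprints went from 12415 to 2615, 3864 and 5496. The ratio of 60 to 45 min was 0.403 in input (95% counting interval 0.388 to 0.418) and 0.211 in footprints (0.202 to 0.220). These intervals cover counting error alone, and the difference between the materials at that step was not tested. The window comparison of Tnf gave log2 changes of -0.52 ± 0.35 and -0.60 ± 0.55 (adjusted p = 0.46 and 0.64). Without the 45 min library the changes were 0.26 and 0.89, of opposite sign.

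Tnfaip3 (A20), a ubiquitin-editing brake on NF-kB, had 4138, 1682, 1549 and 2633 counts in input and 4606, 1752, 1386 and 2369 in footprints. Nfkbia, the classical IkB inhibitor, had 7038, 4298, 3806 and 5131 in input and 12974, 5532, 5806 and 7656 in footprints. The ratio of 90 to 75 min in input had a 95% counting interval of 1.60 to 1.81 for Tnfaip3 and of 1.29 to 1.41 for Nfkbia. Neither gene passed the window test in either material (adjusted p from 0.44 to 0.60). These 2 and Tnf were the 3 genes with 45 and 90 min both at least 1.2-fold above 60 and 75 min in input and footprints alike, and 0 genes had the reverse pattern in both. In input alone 16 of 7549 genes with at least 100 counts had the pattern and 9 the reverse, and in footprints 22 and 14 of 6844. At 1.3-fold, Tnf and Tnfaip3 were the 2 genes left in both materials and Nfkbia was not among them, with 2 against 1 in input and 13 against 2 in footprints. This rule, its fold included, was chosen after the values of Tnf had been seen, and single libraries have no replicate check.

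**Figure D2:**
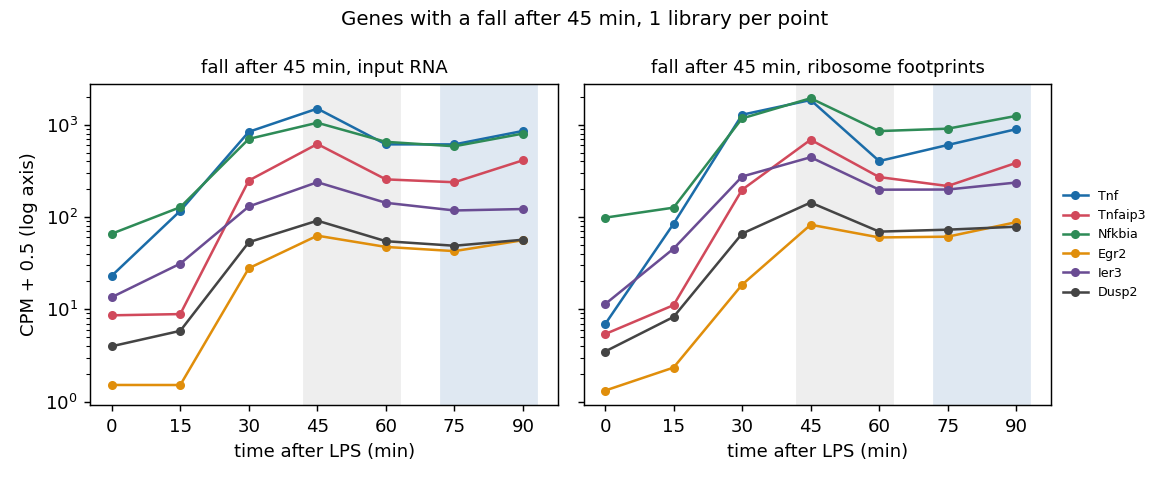
CPM plus 0.5 (log axis) against minutes after LPS for 6 early genes in input (left) and footprints (right), with 1 library per point and both windows shaded. Each gene falls from 45 to 60 min in both materials. Tnf, Tnfaip3, Nfkbia and Egr2 are 1.29-fold to 1.71-fold higher at 90 min than at 75 min, and Ier3 and Dusp2 1.02-fold to 1.14-fold. At 90 min Ier3 and Dusp2 lie 1.69-fold to 2.05-fold below their peak, and Tnf, Tnfaip3, Nfkbia and Egr2 1.02-fold to 2.26-fold.

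Most ubiquitin and kinase brakes, the list that holds Tnfaip3, rose by the linear term. Of 23 tested in each material, 15 rose and 2 fell in input by the linear term, and 16 rose and 1 fell in footprints, with medians of 0.53 and 0.85. By the window test 1 and 4 of the list rose. Among all genes the linear term called 8.18% rising and 6.87% falling in input, and 8.13% and 6.02% in footprints. Socs3, an inhibitor of cytokine receptor signalling, had 310, 494, 879 and 920 counts in input and 302, 468, 843 and 970 in footprints. It rose 2.30-fold in input and 2.46-fold in footprints (adjusted p = 0.037 and 0.038). Peli1, an E3 ligase of Toll-like receptor signalling, rose in footprints from 178 and 215 to 368 and 563 (adjusted p = 0.043) and reached 0.051 in input. Tank, an adaptor that restrains the pathway, rose in footprints by a log2 of 1.07 ± 0.17 (adjusted p = 0.038) and changed by 0.46 ± 0.20 in input (adjusted p = 0.25, linear term 0.0085). The change of its footprints relative to input, a log2 of 0.57, was not called by the window test (adjusted p = 0.19).

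The MAP kinase phosphatases divided. Dusp1, which inactivates p38 and JNK, had 601, 406, 321 and 316 counts in input, and Dusp2 had 608, 357, 315 and 360. Both fell by the linear term (adjusted p = 0.0017 and 0.040) and not by the window test. Dusp4 had 14 counts in untreated cells and 36, 88, 191 and 246 in input. It rose by a log2 of 1.85 ± 0.32 in input and 1.77 ± 0.30 in footprints (adjusted p = 0.047 and 0.048). Of 10 phosphatases tested in input, 3 rose and 3 fell by the linear term, against 8.18% and 6.87% of all genes.

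Among the genes still climbing were the interleukin-1 cytokines and the chemokines. Il1a had 17, 98, 262 and 628 counts in input and 25, 103, 359 and 863 in footprints, against 5 and 0 in untreated cells. The footprints of Il1a rose 9.99-fold between windows (log2 3.32 ± 0.56, adjusted p = 0.045), and its input reached adjusted p = 0.058. Il1b had 157, 666, 1797 and 3411 counts in input and 148, 978, 2673 and 5166 in footprints. Its log2 changes of 2.70 ± 0.55 and 2.86 ± 0.70 missed the window threshold (adjusted p = 0.063 and 0.11) and passed as a linear term (1.4e-06 and 3.8e-08). Csf3, the granulocyte growth factor, had 4, 27, 73 and 187 counts in input and rose by the linear term (adjusted p = 3.8e-06).

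Cxcl10, a chemokine for T cells, had 176, 478, 1185 and 2263 counts in input and 372, 1260, 2694 and 5295 in footprints. Its rise was 5.41-fold in input (adjusted p = 0.049) and 5.11-fold in footprints (adjusted p = 0.086). Ccl3, a monocyte chemoattractant, rose in footprints from 3418 and 6166 to 13563 and 20349 (log2 1.89 ± 0.29, adjusted p = 0.038; input 0.063). Ccl2 and Ccl4 had log2 changes of 2.07 and 2.00 in input, with adjusted p = 0.062 and 0.066 for the window. Ccl9 was the one called chemokine that had not been induced by 60 min, with 809 counts in untreated cells and 881, 1076, 1559 and 2120 later (log2 0.95 ± 0.16, adjusted p = 0.040 in input). Cxcl2 stood apart from the climbing chemokines, at 1258, 1360, 1292 and 1853 counts, and its input windows overlapped (adjusted p = 0.34, linear term 0.013). Of 8 chemokines tested in input, 7 rose by the linear term and 2 by the window test, none fell, and the median log2 change was 1.31. Among all input genes 8.18% rose by the linear term and 0.768% by the window test.

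The RefSeq promoter of the climbing Cxcl10 held 3 of the motifs searched but not the CRE, and the 158 bases that span them are shown for that reason (GRCm38.p6, minus strand, capitals mark the matches).
Cxcl10, chr5:92348951-92349108: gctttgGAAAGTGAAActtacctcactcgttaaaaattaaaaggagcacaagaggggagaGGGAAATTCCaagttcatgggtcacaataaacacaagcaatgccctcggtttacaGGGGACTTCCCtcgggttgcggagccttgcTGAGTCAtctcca
From left to right the capitals are the interferon response pattern, beginning 213 bases before the start, NF-kB patterns at 159 and, overlapping, at 104 and 103 bases, and the AP-1 motif at 74 bases.

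Ptgs2 (cyclooxygenase 2), which makes the precursor of prostaglandins, had 111, 212, 402 and 583 counts in input and 145, 283, 549 and 836 in footprints. It rose by a log2 of 1.65 ± 0.28 and 1.76 ± 0.30 (adjusted p = 0.044 and 0.049). Acod1, which makes itaconate, had 326, 1184, 2429 and 4423 counts in input and rose by the linear term (adjusted p = 2e-06; window 0.077). Plaur, the urokinase receptor, rose 2.97-fold in footprints (adjusted p = 0.039), and its input reached 0.053. Cd69, an activation marker of leukocytes, was at 0 in untreated cells and had 8, 13, 48 and 66 counts in input (log2 2.47 ± 0.33, adjusted p = 0.032). Of 22 late effectors of activation tested in input, 15 rose and 1 fell by the linear term, against 8.18% and 6.87% of all genes. Their median log2 change was 0.45. Several late products had barely begun: Il6 had 0, 5, 7 and 26 counts in input, Nos2 1, 3, 6 and 11, and Ifnb1 1, 1, 7 and 9. Il12b had 1 count in the 4 input libraries together and 0 in footprints, which allows up to 3 counts per footprint library.

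The newly starting genes stood below 2-fold over untreated in the early window. Adora2b, the low-affinity adenosine receptor, had 43 counts in untreated cells and 26, 80, 216 and 303 in the 4 libraries in input. It had 23, 46, 164 and 157 footprints, and its log2 changes were 2.33 ± 0.37 and 2.28 ± 0.27 (adjusted p = 0.037 and 0.038). Nfil3, a basic leucine zipper repressor, had 84, 190, 476 and 623 counts in input and rose 4.12-fold and 4.37-fold (adjusted p = 0.037 and 0.038). Cd80, the costimulatory ligand of CD28, had 65, 97, 234 and 290 in input and 88, 99, 236 and 395 in footprints, with log2 changes of 1.73 and 1.82 (adjusted p = 0.032 and 0.038). For these genes the late libraries lay above both early ones in each material.

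Several newly starting genes were large, while others were short, such as Gadd45b at 2.1 kb and Adora2b at 17.5 kb. By the window test the class had a median of 44.6 kb in input and 30.8 kb in footprints, against 24.9 and 25.0 kb for all tested genes. Rapgef2, an exchange factor for Rap, spans 224.0 kb and had 532, 887, 1658 and 2471 counts in input (log2 1.58 ± 0.25, adjusted p = 0.037). Hivep1 and Hivep3, zinc finger proteins that bind NF-kB-like sites, span 140.5 and 404.3 kb. Hivep1 had 314, 413, 828 and 856 counts in input and 40, 38, 130 and 196 footprints, with log2 changes of 1.25 ± 0.13 and 2.13 ± 0.26 (adjusted p = 0.032 and 0.038). Hivep3 had 112, 187, 416 and 429 counts in input (log2 1.54 ± 0.20, adjusted p = 0.032). The still climbing Pcdh7, a protocadherin of 415.3 kb, had 160, 293, 545 and 805 (log2 1.61 ± 0.27, adjusted p = 0.043).

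The receptors that sense bacteria changed modestly. Tlr4 had 1143 counts in untreated cells, 845 and 947 in the early window and 1268 and 1343 in the late one, a log2 change of 0.58 ± 0.09 in input (adjusted p = 0.037). Its footprints changed by 0.54 ± 0.14 (adjusted p = 0.13). Tlr2 climbed from 5071 and 7678 to 9753 and 11327 counts in input (linear adjusted p = 1.3e-05, window 0.075). Lpl, a lipoprotein lipase of macrophages, rose in input by 0.66 ± 0.07 (adjusted p = 0.032).

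Of 39 repressors and feedback transcription factors tested in input, 5 rose and none fell by the window test. By the linear term 13 rose and 6 fell. The shares of all input genes were 0.768% and 0.416% by the window test and 8.18% and 6.87% by the linear term. In footprints 5 of the 38 tested rose and 2 fell by the window test, against 0.534% and 0.345% of all genes. List medians were 0.06 in input and -0.04 in footprints. The named genes that follow fell without having been induced 2-fold in the early window. Bhlhe41, a basic helix-loop-helix repressor, had 536 footprints in untreated cells and 333, 140, 49 and 45 in the windows (log2 -2.26 ± 0.39, adjusted p = 0.048), and 114, 51, 22 and 17 counts in input (adjusted p = 0.066). Sesn1, a p53 target that restrains mTORC1, fell from 784 counts in untreated cells to 583, 453, 244 and 178 (log2 -1.26 ± 0.16, adjusted p = 0.032), and Ccng2, an unconventional cyclin, from 288 and 218 to 127 and 74 (adjusted p = 0.049). Hyls1, a centriole protein, had 180, 106, 47 and 36 counts in input and fell 3.34-fold and 3.63-fold in input and footprints (adjusted p = 0.039 and 0.038).

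Of 36 cell cycle genes listed, none was called by the window test in either material. By the linear term 11 fell and 1 rose in input, and 6 fell and 1 rose in footprints, with medians of -0.11 and -0.10. Of all genes, 6.87% fell and 8.18% rose in input by that term, and 6.02% and 8.13% in footprints.

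Of the interferon-stimulated genes, the window test called 0 of 30 in input and 0 of 33 in footprints. The linear term called 3 higher and 2 lower in input, and 5 and 6 in footprints. In input these were 3 and 2 of 30, near the 8.18% and 6.87% of all genes. In footprints they were 5 and 6 of 33, above the 8.13% and 6.02% of all genes. Irf1, a transcription factor of that list, fell by the linear term, at 152, 92, 53 and 20 counts in input (linear adjusted p = 6e-05). Of 36 ribosome biogenesis genes, 14 rose and none fell in input by the linear term, against 8.18% and 6.87% of all genes. Their median log2 change was 0.15. In footprints 27 of 55 replication-dependent histone genes rose by the linear term and 1 by the window test, with a median of 0.24. The gene called by the window test, Hist1h2bj, had 1050 footprints in untreated cells and 492, 536, 715 and 731 in the windows. Its late level thus stayed below that of untreated cells. In input 3 of the histone genes rose by the linear term. Among all genes that term called 8.13% rising in footprints and 8.18% in input. Ribosomal proteins had median log2 changes of 0 in input and 0.10 in footprints. Of the 70 tested in footprints, 38 were higher without overlap and 0 lower, against 24.5% and 24.6% of all genes. Of 13 mitochondrially encoded genes, mt-Cytb and mt-Nd1 rose in input by the window test, by 0.38 and 0.28. Both had been higher at 30 min, with 17542 and 24141 counts against 14911 and 20310 at 90 min. The mitochondrial share of input counts was 3.94% at 45 min and 4.51% at 90 min, and its part in these 2 results was not tested. Actb and Gapdh were not called by the window test in either material, with input log2 changes of 0.18 and 0.10, but the linear term called Actb higher in input (adjusted p = 0.00096).

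**Figure D3:**
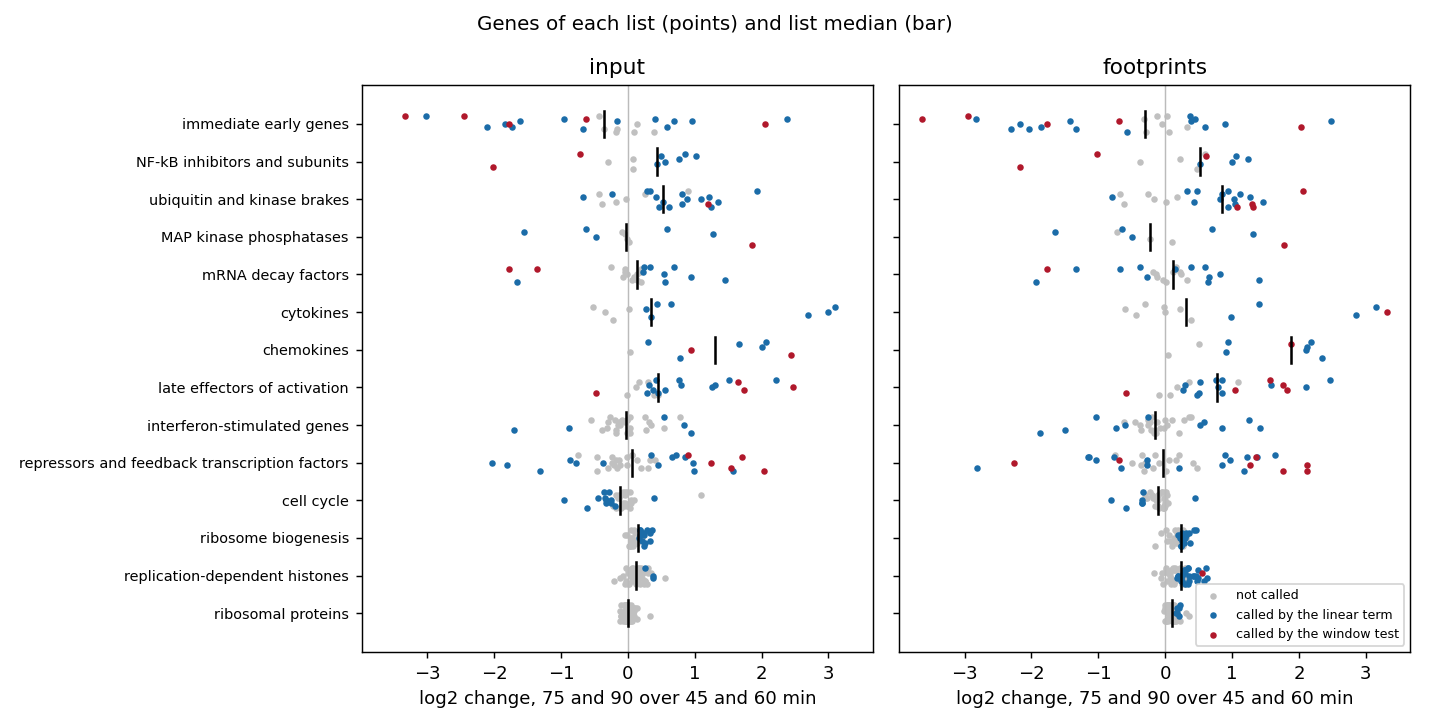
Each point is a gene of a list, at its log2 change between the windows in input (left) or footprints (right), and the bar is the median of the list. Red points passed the window test, blue points only the linear term and grey points neither. Chemokines lie above 0 with medians of 1.31 and 1.89, and immediate early genes spread from below -3 to above 2. Ribosomal proteins sit close to 0, with medians of 0 and 0.10, and run from -0.01 to 0.36 in footprints.

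Changes in footprints followed those in mRNA. Over the 8901 genes tested in both, Pearson's r of the 2 log2 changes was 0.77 and Spearman's rho 0.59, across genes, which are not independent replicates and share the lysates of each time point. Of 154 genes called in either material, 153 had the same sign in both (99.4%), against 69.9% of all genes. The 36 genes called in both made up 32.4% of the input calls and 45.6% of the footprint calls. Of these, 21 rose and 15 fell in both, and none moved in opposite directions.

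**Figure D4:**
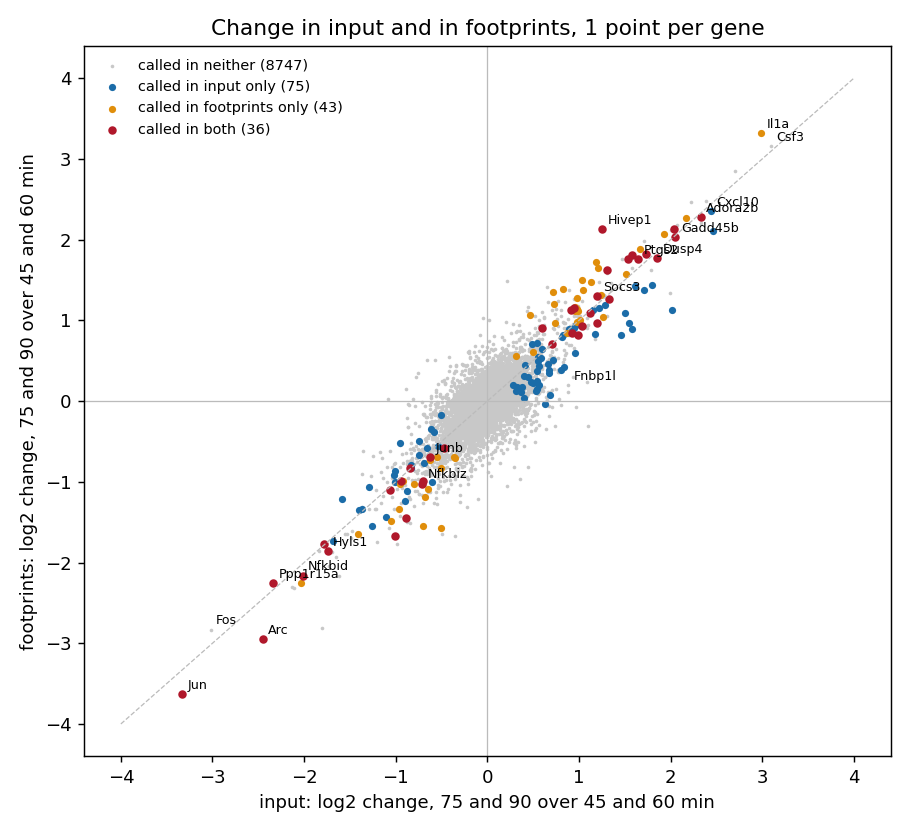
Each point is a gene, with its log2 change between the windows in input on the x axis and in footprints on the y axis; the dashed line marks equal change. The genes called in both materials, from Jun at -3.33 and -3.63 to Adora2b at 2.33 and 2.28, share their sign in both, and some lie off the line, such as Hivep1 at 1.25 and 2.13. Fos and Csf3 lie as far out but passed neither window test.

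Ribosome density, footprints relative to the input of a gene, was compared as the interaction of material and window, with the time point as a block. No gene was called higher (0%) and 1 lower (0.0112%) of 8901, while 633 had an unadjusted p under 0.05, and DESeq2 called none, with 103 at that unadjusted level. Windows of density did not overlap for 18.1% of genes in the higher direction and 19% in the lower, an order that often arises without any change. The medians of density change were -0.09 for the shut-off genes of input, 0.00 for those that fell without induction, -0.09 for the climbing and -0.12 for the newly starting genes, against -0.014 for all genes. For the footprint classes in the same order the medians were -0.14, -0.29, 0.09 and 0.14. A class called in one material enters its own density, so these medians are descriptions.

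The gene called was Fnbp1l, an F-BAR protein of membrane curvature and actin assembly. Its input had 541 and 533 counts in the early window and 713 and 1214 in the late one, while its footprints numbered 452, 468, 403 and 605. The log2 density was -0.26 and -0.16 in the early window and -0.80 and -0.94 in the late one, a change of -0.68 ± 0.12 (adjusted p = 0.041). The call was lost with DESeq2's size factors, at a minimum of 50 counts, in the DESeq2 test, without the block and without the 45, 60 or 90 min libraries.

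The linear term called 9 genes with rising density (0.101%) and 6 with falling density (0.0674%). They lie outside the naming rule apart from Fnbp1l, Nr4a1 and Zfp710 and are named because they are so few. Rising density was seen for Clk1 and Clk4, kinases of splicing factors, and for Srek1 and Prpf38b, splicing proteins themselves. Clk1 input stayed at 697, 756, 741 and 660 counts while its footprints numbered 333, 707, 827 and 713. Clk4 input had 300, 388, 354 and 326 counts and its footprints rose from 108 to 177, 217 and 239. The density of Clk1 changed by a log2 of 0.74 ± 0.14 per 30 min and that of Clk4 by 0.72 ± 0.13 (adjusted p = 0.043 for both). For all 4 genes the log2 density at 45 min was below that of untreated cells, at -1.06 against -0.41 for Clk1 and -1.47 against -1.19 for Clk4. For Srek1 the values were -0.88 and -0.27, and for Prpf38b -0.24 and 0.18. The other risers were Chka, Bdp1, Nadk, Tpm4 and 2810403A07Rik. Each of them also had a lower log2 density at 45 min than in untreated cells, such as -0.99 against 0.04 for Chka. A low value at 45 min was thus common to all 9 risers and not particular to the splicing genes.

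Falling density was called for Nr4a1, Zfp710, Fnbp1l, Cnih4, Tpcn1 and Pgd. Nr4a1 fell in both materials and further in footprints, which numbered 1597, 1213, 464 and 135. Its log2 density had risen from -4.33 in untreated cells, on 1 footprint there, to 0.52 at 45 min, and was 0.35, 0.01 and -0.44 at 60, 75 and 90 min. The change was -0.61 ± 0.11 per 30 min (adjusted p = 0.043; window test 0.19). Pgd, an enzyme of the pentose phosphate pathway, gained input (745, 704, 828 and 1015 counts) while its footprints numbered 5500, 4973, 4872 and 4666.

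**Figure D5:**
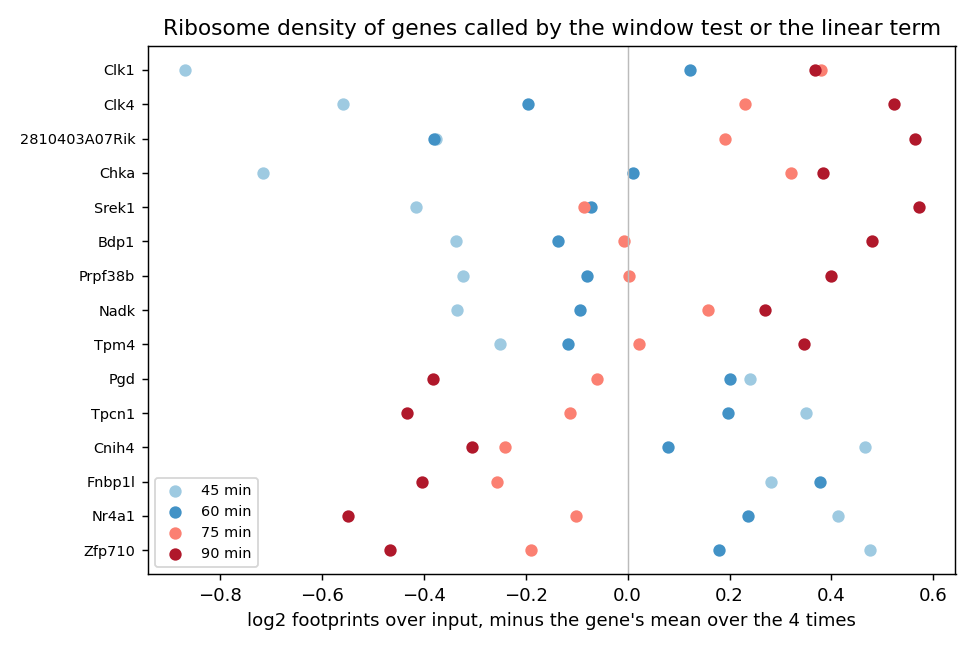
Log2 ratio of footprints to input for the 15 genes that the linear term called, minus the mean of the gene over the 4 times; each point is the ratio of a single pair of libraries. The upper 9 genes have their lowest or close to lowest density at 45 min, and the lower 6 genes have their lowest density at 90 min.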

How the data were processed

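Counts were tested as deposited. The authors' table gives whole-number counts per gene for 16 libraries and, beside each, a normalised signal that the authors deposited from DESeq2, per the file headers, which was not used here. The submitters' processing notes name Bowtie 0.12.8, DESeq2 1.18.1 and mm10. The sources used here do not give how reads were assigned to genes, by strand or with several matches, so overlapping and near-identical genes are uncertain. Footprints came from RNase I digestion of cycloheximide lysates and the input was fragmented RNA, both of 25 to 35 nt, per the labels' protocols. The totals are equal, so the sequenced depth is unknown.

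Genes with at least 20 counts in 2 of the 4 libraries of a material were fitted with edgeR 4.0.16 in R 4.3.3 (TMM factors 0.961 to 1.04, glmQLFit and glmQLFTest, Benjamini-Hochberg adjustment, threshold 0.05). Every adjusted p is from that test unless DESeq2 1.42.0 is named. Each fit had 2 residual degrees of freedom. SE is the log2 change divided by the square root of F. CPM used TMM factors, a class needed 2-fold with a pseudocount of 0.5 CPM, and density levels used 0.1 CPM. Counting intervals are 95% exact intervals and cover counting error only, as does the floor of 3 counts. The linear term is given per 30 min. Scripts were tested on simulated data.

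Named genes were the 12 largest called changes per direction and material with at least 100 counts in a library and windows that do not overlap, up to 10 for density, up to 4 called members of each list, and a fixed set whatever their values; exceptions are marked. Cxcl1 and Marco of that set were not analysed here. A further gene that the rule names is not reported here. The members and lists were chosen with earlier results of these data known. The sequence searches in 3′ UTRs, the gene lengths and the classes of linear calls were chosen after seeing the data. Of 9374 input genes, 9121 matched the RefSeq table by symbol or synonym, 7472 had a promoter and 9066 a 3′ UTR of at least 30 bases.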

Additional observations from a re-analysis of the deposited data

Results flagged for a closer look

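Fnbp1l differed between input and footprints by a test of the difference itself, with a density change of -0.68 on the log2 scale (edgeR, adjusted p = 0.041). It was the 1 gene of 8901 called by the window test, while the linear term called 15, Fnbp1l among them at -0.55 (adjusted p = 0.043). The call was lost with DESeq2's size factors (adjusted p = 0.089), at 50 counts (0.06), by DESeq2 (1), without the block (1) and without the 45, 60 or 90 min libraries (0.30, 0.42 and 0.34). It held with total counts, with no filter and without the 75 min library.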

How the results depend on the processing

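No paired analysis was possible because, within a material, each group held 1 library and the labels give no shared replicate numbers across the windows. The density test pairs the input and footprints of a time point as a block, and without that block 0 genes were called higher and 0 lower. Calls higher and lower in input were 72 and 39 in the main fit, 107 and 73 scaled by total counts, 0 and 0 with no filter (1823 at an unadjusted p under 0.05, and 225 called by DESeq2 on filtered genes), 138 and 87 by DESeq2, and 767 and 644 by the linear term. In footprints they were 48 and 31, 74 and 73 by total counts, 33 and 23 with no filter, 94 and 65 by DESeq2, and 731 and 541 by the linear term. Density calls were 0 and 1, 4 and 1 with no filter, 9 and 6 by the linear term, and 0 and 0 with DESeq2's size factors, at 50 counts and by DESeq2. Leaving out each library in turn gave 0 to 314 higher and 1 to 217 lower genes in input, 22 to 521 and 12 to 410 in footprints, and 0 to 14 and 0 to 14 in density, with 1 residual degree of freedom in input and footprints. Total counts left 1374 footprint genes higher without overlap. At 1.5-fold over untreated, 17 input and 13 footprint genes counted as still climbing. The linear term classed 32 genes of input as shut-off, 612 as falling, 91 as climbing and 676 as newly starting, and 34, 507, 95 and 636 of footprints, an alternative chosen after seeing the data.

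Some named genes that the window test did not call changed sign. With total counts, the log2 change of footprints was -0.01 for Egr2 and for Gapdh, and by the linear term it was 0 for Gapdh. Over the fits that leave out 1 library each, log2 changes of input ran from -1.03 to 0.26 for Tnf, -0.93 to 0.35 for Tnfaip3, -0.60 to 0.09 for Nfkbia, -0.37 to 0.06 for Egr2 and 0 to 0.93 for Klf6. In footprints they ran from -1.31 to 0.89 for Tnf, -1.20 to 0.15 for Tnfaip3, -0.85 to 0.33 for Nfkbia, -0.93 to 0.12 for Dusp2, -1.04 to 0.13 for Ier3, -0.22 to 0.31 for Egr2 and -0.02 to 0.90 for Klf6. They ran from -0.15 to 0.48 for Fnbp1l, -0.03 to 0.12 for Gapdh, -0.07 to 0.38 for mt-Cytb and -0.20 to 0.51 for mt-Nd1. For Tnf, Tnfaip3, Nfkbia, Dusp2 and Ier3 the sign changed without the 45 min library. The cause was not tested.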
